A study of Drosophila melanogaster with 3 samples.

Results

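The 9 genes described here encode heat shock proteins, their constitutively made relatives and the factor that switches them on: Hsp27, Hsp26, Hsp23, Hsp22, Hsp83, Hsp60A, Hsc70-4, Hsc70-3 and Hsf. They were listed by name, found in the Ensembl annotation of Drosophila melanogaster, and make up 9 of the 13945 protein-coding genes on the 6 main chromosome arms. A peak was given to a gene when its summit, the point of highest signal in the peak, lay inside the gene or within 1 kb of it. By that rule 7 of the 3515 peaks of the authors' conservative list belonged to 6 of the 9 genes.

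Whole embryos of 0 to 24 h were used, from the transgenic strain CG14050-GFP, which makes the CG14050 protein fused to eGFP, a green fluorescent tag. Chromatin was sonicated to 200 to 800 bp and precipitated with an antibody to GFP, and the recovered DNA was sequenced (ChIP-seq). All 3 libraries were biological replicates of this 1 group and came from the same donor strain, with the promoter driving the fusion not given in the sources used here. The labels name no heat treatment, and the control experiment they point to was not analysed here, so whether the same regions appear without the tagged protein was not tested. The replicate lists held 2155, 2433 and 2282 thresholded peaks and 49504, 48710 and 46992 ranked regions in replicates 1, 2 and 3.

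Heat shock proteins are chaperones, which keep other proteins folded. Small heat shock proteins hold unfolding proteins in solution without using ATP, whereas the Hsp60, Hsp70 and Hsp90 families refold or mature their clients in cycles of ATP hydrolysis. Heat shock factor, the product of Hsf, binds heat shock elements, which are inverted repeats of the unit GAA, and turns on the inducible members. In flies several small heat shock genes are also transcribed during normal development, and the cognate genes Hsc70-3 and Hsc70-4 are active without heat.

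The sequences below lie under 5 of the 7 conservative peaks and are shown because they hold a pair of GAA units, which is shorter than a complete heat shock element, or the GAGA repeat, the letters bound by GAGA factor at many heat shock promoters. Each is read 5′ to 3′ along the strand of its gene, from the RefSeq sequence at the coordinates of the dm6 build, in a window of up to 300 bp around the summit. Capitals mark GAANNTTC and TTCNNGAA, a pair of GAA units facing each other or apart, and GAGAG or its complement CTCTC. Only exact matches are marked, so further GAA units near a pair, as in the Hsp83 promoter-side site, stay in lower case. For the promoter-side peak of Hsp83 only a 30-base site is given.
Hsp27 promoter, chr3L:9383741-9384040, plus strand: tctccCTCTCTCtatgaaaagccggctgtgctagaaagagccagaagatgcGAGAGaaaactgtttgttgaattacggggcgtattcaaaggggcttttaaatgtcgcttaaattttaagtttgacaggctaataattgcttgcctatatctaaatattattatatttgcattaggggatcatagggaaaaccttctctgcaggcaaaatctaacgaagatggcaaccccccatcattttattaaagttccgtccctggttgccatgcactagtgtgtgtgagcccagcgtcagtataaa
Hsp26 promoter, chr3L:9377428-9377721, minus strand: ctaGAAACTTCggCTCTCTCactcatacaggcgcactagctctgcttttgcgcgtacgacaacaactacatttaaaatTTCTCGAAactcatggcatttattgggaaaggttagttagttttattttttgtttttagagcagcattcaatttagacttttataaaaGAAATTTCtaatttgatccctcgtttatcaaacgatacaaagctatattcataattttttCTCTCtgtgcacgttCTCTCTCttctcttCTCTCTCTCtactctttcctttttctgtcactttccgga
Hsp83 promoter-side site, chr3L:3193137-3193166, plus strand: agaagcctctaGAAGTTTCtagagacttcc
Hsp83 intron, chr3L:3194115-3194414, plus strand: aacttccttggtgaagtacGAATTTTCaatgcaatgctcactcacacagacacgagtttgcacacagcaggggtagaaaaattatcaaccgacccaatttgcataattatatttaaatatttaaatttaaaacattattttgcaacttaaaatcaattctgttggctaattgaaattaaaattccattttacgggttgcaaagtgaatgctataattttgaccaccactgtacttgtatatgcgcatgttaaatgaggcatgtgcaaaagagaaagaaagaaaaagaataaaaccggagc
Hsc70-4 promoter, chr3R:15242337-15242636, plus strand: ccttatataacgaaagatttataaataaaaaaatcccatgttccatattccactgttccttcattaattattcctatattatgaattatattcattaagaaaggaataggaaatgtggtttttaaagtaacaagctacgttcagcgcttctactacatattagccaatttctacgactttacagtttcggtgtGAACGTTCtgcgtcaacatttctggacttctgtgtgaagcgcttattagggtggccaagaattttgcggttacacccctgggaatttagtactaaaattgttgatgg

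The share of members with a conservative peak was 66.7%, beside 22.7% of all protein-coding genes. Gene length bears on this count, because a long gene has more room for a summit: among the 8536 genes whose length lay within the range of the members, 19.8% had one. At a transcription start site (TSS), 5 of the 9 members (55.6%) had a conservative summit within 500 bp, against 14.3% of all genes. The thresholded lists of replicates 1, 2 and 3 held peaks at 4, 5 and 5 members, beside 16.0%, 18.0% and 17.5% of all genes. The 4 members Hsp27, Hsp26, Hsp22 and Hsp83 had a peak in each of the 3 replicates (44.4%), which was so for 12.1% of all genes. These shares are descriptions of 9 chosen genes and carry no test. The genes were chosen with earlier results of these data known, and whether that choice raised the shares was not tested.

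Each peak carries the authors' own signal, a peak height on a scale not given in the sources used here. For that reason values from different lists were not set against each other. The thresholded lists hold regions with an irreproducible discovery rate (IDR) of at most 0.01, the expected share of regions that would not recur in a second list. The thresholded conservative list was 5.52% as long as its ranked list, and those of replicates 1, 2 and 3 were 4.35%, 4.99% and 4.86% as long as theirs. Across the 7 peaks the conservative signal ran from 79.2 to 649. The median strongest signal of the 6 members with a peak was 224, at percentile 72.5 of the list, beside 164 and percentile 62.4 for the 3165 genes with a peak.

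**Figure D1:**
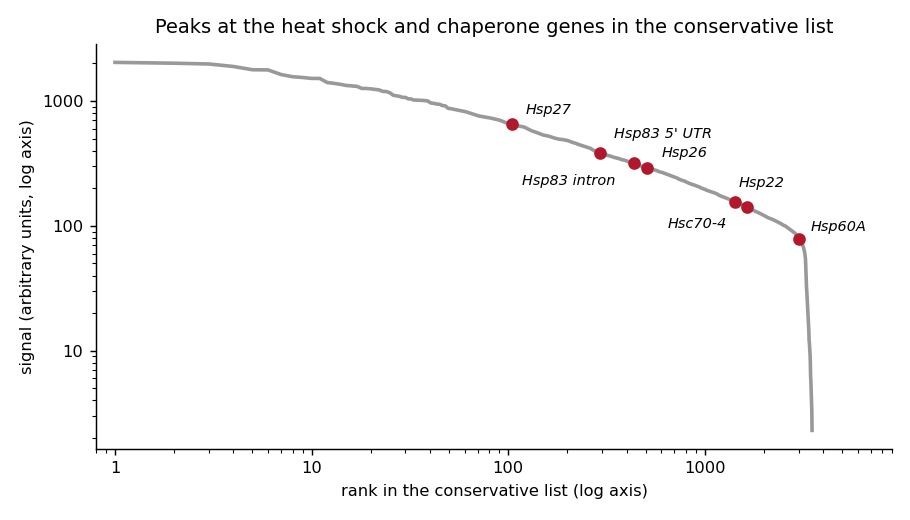
Signal (authors' arbitrary units, log axis) against rank (log axis) for all 3515 conservative peaks, as a grey line, with the 7 peaks at heat shock and chaperone genes as red points. The points run from rank 104 at Hsp27, with a signal of 649, to rank 3024 at Hsp60A, with a signal of 79.2.

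Of the 7 summits, 6 lay upstream of the nearest start site of their own gene, by 95 to 506 bp, and the remaining one lay in an intron of Hsp83. The Hsp22 summit lay between the start sites of that gene, and which of them was nearer differed between replicates. The summits of 4 peaks were outside their gene and those of 3 were inside. For all 7 the nearest start site of any protein-coding gene was the member's own. Peak width was mostly a fixed value in these data: 2816 of the 3515 conservative peaks (80.1%) were 330 bp wide, and 3 of the 7 member peaks were narrower.

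Among the small heat shock genes, Hsp27 had the highest signal of the 9 members. Its gene lies at chr3L:9384063-9385694 on the plus strand, and the conservative summit at position 9383891 was in intergenic sequence, 172 bp upstream of the start site. The conservative signal was 649, rank 104 of 3515, at percentile 97.1. In replicates 1, 2 and 3 the signal was 192, 267 and 184, at ranks 117 of 2155, 68 of 2433 and 169 of 2282. Within each replicate it was the strongest member peak, and the summits lay within 13 bp of the conservative one.

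The Hsp26 peak stood at the promoter of a gene read in the opposite direction, at chr3L:9376418-9377427 on the minus strand. The gene has start sites at 9377427 and 9377375. Its conservative summit was intergenic, 145 bp upstream of the first of these, with a signal of 292 and rank 511, at percentile 85.5. The replicates gave signals of 97.0, 95.9 and 95.5, at ranks 426, 588 and 604. Hsp26 was therefore below Hsp27 in every replicate: the Hsp27 signal was 2.23 ± 0.478 times the Hsp26 signal (SD, n = 3), with a range of 1.93 to 2.78.

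Hsp22, which encodes a mitochondrial small heat shock protein, had a weaker peak. The gene spans chr3L:9372931-9374964 on the plus strand and has start sites at 9372931 and 9373997. The conservative summit at 9373491 lay 506 bp upstream of the second start site, inside the 5′ UTR of the longer Hsp22 transcript and inside the 3′ UTR of the overlapping gene CG4456. Its signal was 156, at rank 1427 and percentile 59.4. Replicates 1, 2 and 3 gave 58.7, 46.2 and 47.5, at ranks 1037, 1789 and 1878. In replicate 3 the summit was nearer to the first start site, 524 bp downstream of it. Only replicate 1 held a second thresholded peak there, with a signal of 37.6 at rank 1980 and a summit 93 bp upstream of the first start site. The Hsp27 signal was 4.31 ± 1.31 times that of the Hsp22 peak found in all 3 (SD, n = 3).

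Hsp23 had no thresholded peak in any list, although it lies between Hsp26 and Hsp27 at chr3L:9381882-9382765. Its strongest region in the conservative ranked list had a signal of 40.7 at rank 16488 of 63709, with a summit 154 bp downstream of the start site and a −log10 IDR of 0.062, where the limit is 2. Replicate 1 listed a region with a signal of 17.5 at rank 13127, and replicate 3 one of 23.7 at rank 8344. Replicate 2 listed none. The nearest conservative summit was the Hsp27 peak, 1126 bp from the end of Hsp23 and thus just outside the 1 kb limit.

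These genes belong to the 67B cluster, a run of 9 annotated genes, 8 of them protein-coding, over 14184 bp at chr3L:9371511-9385694. Within 1 kb of the cluster there were 4 passing summits in the conservative list and 4, 3 and 3 in replicates 1, 2 and 3, out of 11, 10, 9 and 11 ranked regions. Besides the Hsp22, Hsp26 and Hsp27 peaks, the fourth conservative summit had a signal of 66.97 at rank 3180 and lay 42 bp upstream of the start site of Fdx1, outside the cluster. Neighbouring conservative summits were 2391, 4081 and 6319 bp apart.

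The longest of those gaps, from the Hsp26 peak to the Hsp27 peak, holds Hsp67Ba, the antisense RNA gene asRNA:CR43481 and Hsp23, and had no passing summit. It held 5 ranked regions in the conservative ranked list and 3, 3 and 4 in replicates 1, 2 and 3, with highest signals of 55.7, 17.5, 14.8 and 29.1. The Hsp27 peak was 11.7 times the strongest non-passing region within 1 kb of the cluster in the conservative list, and 10.9, 7.91 and 6.33 times in replicates 1, 2 and 3. These were not 1 place: in replicates 2 and 3 that region lay outside the cluster, near Fdx1, and otherwise in the gap. Signal at the cluster was thus uneven in all 3 replicates, with the Hsp27 peak highest, the Hsp26 peak next and the Hsp22 peak below both.

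**Figure D2:**
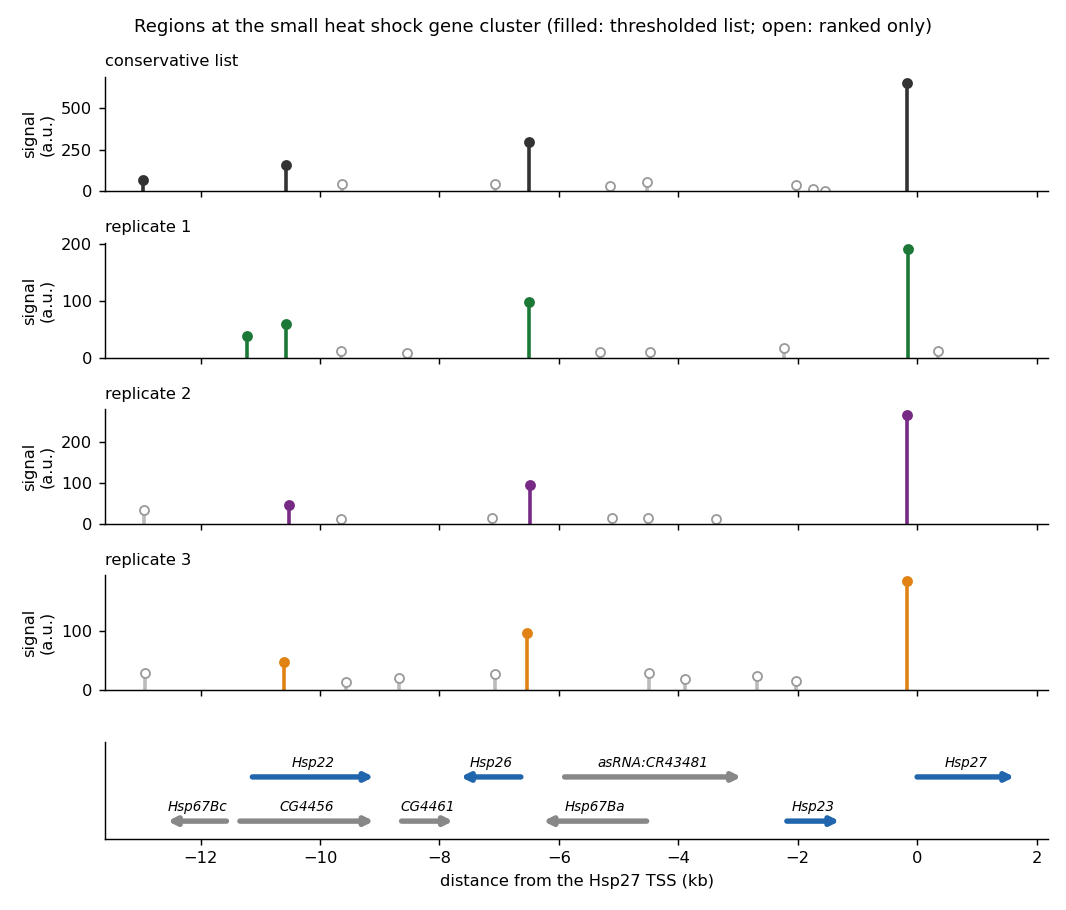
Signal of each region (authors' arbitrary units, a separate scale per list) against distance from the Hsp27 start site in kb, at the small heat shock gene cluster, for the conservative list and replicates 1 to 3. Filled points passed the authors' threshold and open points are in the ranked list only, and arrows below show the genes, with members in blue. The Hsp27 peak is highest in every panel, at 649, 192, 267 and 184, and no filled point lies between it and the Hsp26 peak.

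Hsp83, the fly Hsp90, which matures signalling proteins such as kinases and steroid receptors, was the one member with more than 1 conservative peak. The gene lies at chr3L:3192969-3197059 on the plus strand, with start sites at 3192969 and 3193216. The first peak had its summit at 3193121, 95 bp upstream of the second start site and inside the 5′ UTR of the longer transcript, with a signal of 386 at rank 292 and percentile 91.7. The second peak was in an intron, with its summit at 3194265, which is 1049 bp downstream of the second start site, and with a signal of 316 at rank 436 and percentile 87.6.

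In replicates 1, 2 and 3 the promoter-side signal of Hsp83 was 128, 111 and 156, at ranks 234, 433 and 240. The intron signal was 121, 100.001 and 97.0, at ranks 262, 550 and 583. The promoter-side peak was the higher of the pair in all 3 replicates, but by very different amounts, with ratios of 1.06, 1.11 and 1.61 (1.26 ± 0.306, SD, n = 3). The ratio was 1.22 in the conservative list. The distance between the summits was 1144 bp in the conservative list and 1173, 1139 and 1186 bp in the replicates, so both peaks recurred at nearly the same places.

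The Hsp27 signal was 1.69 ± 0.639 times the Hsp83 promoter-side signal (SD, n = 3), with a range of 1.18 to 2.41. The next conservative summit beyond the 1 kb limit of Hsp83 was 2044 bp away and 13 bp from the start site of gry, with a signal of 98.0. The conservative peak ranked directly above the Hsp83 promoter-side peak, at rank 291 with a signal of 386, had its summit 92 bp upstream of the start site of CG14050, the gene whose protein was tagged.

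Hsc70-4, the main cytosolic Hsp70 cognate of the fly, had 1 conservative peak. The gene lies at chr3R:15242687-15246614 on the plus strand, and the summit was intergenic, 200 bp upstream of the farthest upstream start site. The neighbouring gene tefu is read in the opposite direction from a start site at 15242236. The summit, at 15242487, lay between the start sites of the neighbours, slightly nearer to that of Hsc70-4. The peak thus cannot be given to Hsc70-4 alone. The signal was 142 at rank 1632 and percentile 53.6. Replicates 2 and 3 held the peak at signals of 51.0 and 71.4, at ranks 1569 and 1017. In replicate 1 the region was ranked only, at 27.3 and rank 4199 of 49504, with a −log10 IDR of 0.517. Hsc70-4 thus passed in 2 of the 3 replicate lists.

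The peaks paired for the IDR of the conservative list did not come from all replicates alike. From the values, the matched peaks listed beside each conservative region were identical in coordinates and signal to peaks of replicate 2 for 63.4% of regions on one side and to peaks of replicate 3 for 66.2% on the other, with 0 from replicate 1. By the same match the lists of 3219 and 3247 peaks compared replicate 1 with replicates 2 and 3, and Hsc70-4 passed in both, with −log10 IDR values of 2.55 and 2.56 beside 4.53 in the conservative list. Member peaks held by more than 1 of these lists had the same coordinates and signal in each, such as 142 for Hsc70-4. The lists were thus not separate measurements of signal.

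Hsc70-3, which encodes BiP, the Hsp70 of the endoplasmic reticulum, had no thresholded peak. The gene lies at chrX:11801696-11807117 on the minus strand. Its strongest region had a signal of 36.2 in replicate 1 at rank 2462, 9.49 in replicate 2 at rank 40935 and 22.5 in replicate 3 at rank 9781. These were 3 different places, 493 bp upstream, 1406 bp downstream and 4362 bp downstream of the nearest start site of the gene, and no other member had as wide a spread of percentiles over the replicates. The conservative ranked list gave 41.8 at rank 15411, with a −log10 IDR of 0.451, and the nearest conservative summit was 11475 bp away.

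Hsp60A, the chaperonin of the mitochondrial matrix, had a conservative peak but none in any replicate list. The gene lies at chrX:11108482-11112308 on the plus strand, and the summit was intergenic, 104 bp upstream of the first start site. The signal was 79.2 at rank 3024, percentile 14.0, and the −log10 IDR of 2.66 was the lowest of the 7 member peaks. In the ranked lists of replicates 1, 2 and 3 the region had signals of 39.9, 34.3 and 34.2, with −log10 IDR values of 1.66, 1.39 and 1.56, all short of 2. The replicate summits lay 168 bp upstream, 36 bp downstream and 71 bp upstream of the start site, up to 140 bp from the conservative one.

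Hsf itself, on the minus strand at chr2R:18130303-18134634, had no thresholded peak. Its strongest ranked region had a signal of 20.6 in replicate 1, 20.4 in replicate 2 and 36.9 in replicate 3, at ranks 8476, 8152 and 2939. These were not 1 recurring region: the summits lay 2604 bp downstream, 761 bp upstream and 3079 bp downstream of the Hsf start site. In the conservative ranked list the strongest was 55.0 at rank 7583, 722 bp upstream, with a −log10 IDR of 1.53, and it was 70 bp from the start site of the neighbouring gene Pcl.

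Placed by the percentile of its strongest region in the ranked list, the order of the members was Hsp27, Hsp83, Hsp26, Hsp22, Hsc70-4, Hsp60A, Hsf, Hsp23 and Hsc70-3. The mean percentile was 99.7 ± 0.113 for Hsp27, 99.4 ± 0.234 for Hsp83 and 98.9 ± 0.233 for Hsp26 (SD, n = 3). It was 96.6 ± 1.11 for Hsp22, 95.3 ± 3.34 for Hsc70-4 and 94.2 ± 1.43 for Hsp60A. The replicate ranges of Hsp22 and Hsc70-4 overlapped, as did those of Hsc70-4 and Hsp60A, and within both pairs the order changed between replicates. The ranges of Hsp83 and Hsp26 also overlapped, but Hsp83 ranked above Hsp26 in each of the 3 replicates. The ranges of Hsp27 and Hsp83 did not overlap, nor did those of Hsp26 and Hsp22.

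At the lower end the mean percentile was 86.6 ± 6.17 for Hsf and 63.4 ± 41.8 for Hsc70-3 (SD, n = 3), and 77.9 ± 6.19 for Hsp23, from the 2 replicates with a region. The ranges of Hsp60A and Hsf overlapped, and so did those of Hsp23 and Hsc70-3. Hsc70-3 ran from percentile 16.0 to 95.0 and had no stable place in the order.

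**Figure D3:**
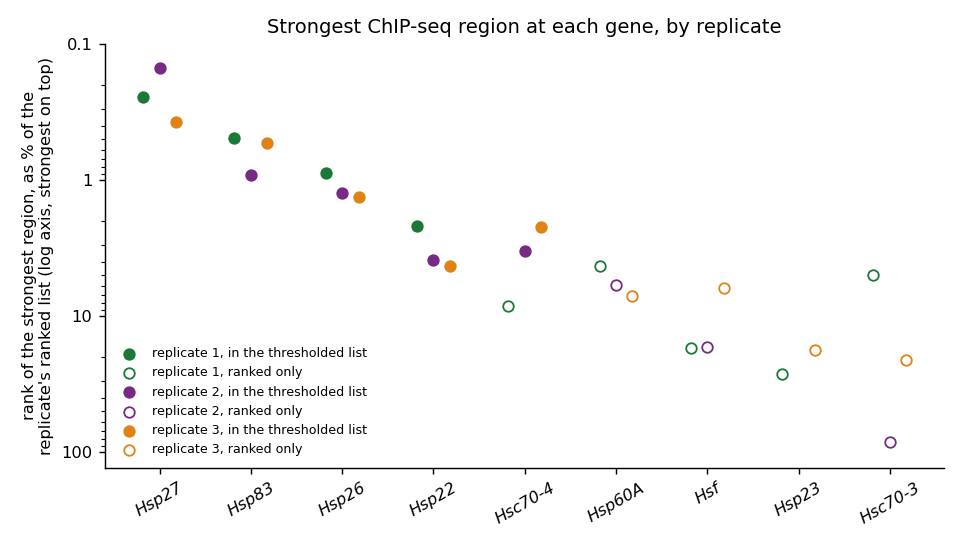
Rank of the strongest region at each of the 9 genes, as a percentage of the ranked list of replicates 1, 2 and 3 (log axis, strongest on top), 1 point per replicate. Filled points are in the thresholded list and open points are in the ranked list only, and Hsp23 has no region in replicate 2. Hsp27, Hsp83, Hsp26 and Hsp22 have filled points in all 3 replicates, Hsc70-4 in replicates 2 and 3, and the other 4 genes in none.

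The genes most like Hsp27 in signal percentile over the 3 replicate lists and the conservative list were PIG-H, Kmn2 and CG2698, out of 1676 genes with a peak in all 4 lists. All 3 share 1 peak, with a conservative signal of 653 at rank 103, directly above Hsp27, and a summit just upstream of the start site of CG2698. Its percentiles were 94.9, 96.5, 94.5 and 97.1, beside 94.6, 97.2, 92.6 and 97.1 for Hsp27, a mean absolute difference of 0.723 percentile points.

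The complete heat shock element of 3 units, searched on both strands as GAANNTTC running on into NNGAA, or TTCNNGAA running on into NNTTC, within 300 bp centred on the summit, was in 0 of the 7 member windows. It was in 0.286% of all conservative peaks, 0.252% of non-passing regions and 0.418% of windows from 250 bp upstream to 50 bp downstream of a start site, which are called promoters here. The search took exact letters only, so an element with a changed base was not counted and may be present in a member window. The Hsp83 promoter-side site printed above holds further GAA units on both sides of its pair, with imperfect units between. A pair of units of the form GAANNTTC was in 4 of the 7 windows, beside 7.20% of conservative peaks, 7.82% of non-passing regions and 9.34% of promoters. The 4 windows were those of Hsp26, Hsc70-4 and both Hsp83 peaks. In the sequences above the match lies 65 bp upstream of the second start site of Hsp83 and 154 bp upstream of the farthest upstream start site of Hsc70-4. At Hsp26 the matches lie 124 and 287 bp upstream of the farthest upstream start site, 9377427. The form TTCNNGAA was in the Hsp26 window only, 212 bp upstream, and in 7.34% of all conservative peaks. Both patterns, with N for any base, are the same on either strand.

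The GAGA repeat, GAGAG on either strand with overlapping matches counted, was in the windows of Hsp26 and Hsp27, which is 2 of 7, beside 35.1% of conservative peaks and 33.1% of promoters. Hsp26 held 8 matches, 6 of them between 33 and 66 bp upstream of its farthest upstream start site, and Hsp27 held 3, from 269 to 315 bp upstream. The TATA box letters TATAAA were in 6 of 7 windows, beside 44.5% of conservative peaks and 42.2% of promoters, at varied distances from the start site. They lay 26 bp upstream at Hsp27 and 28 bp at the second Hsp83 start site, but 115 bp at Hsp60A. At Hsc70-4 they lay 329 and 331 bp upstream of the farthest upstream start site. The Hsp22 match was 640 bp upstream of the second start site and downstream of the first. At Hsp26 they lay 132 and 134 bp upstream of the farthest upstream start site. The Hsp26 window did not reach the stretch just upstream of its other start site, 9377375, which was thus not searched. The Hsc70-4 window ended at 15242636, before its farthest upstream start site at 15242687. The Hsp22 window, 9373341 to 9373640, lay between the start sites at 9372931 and 9373997. The stretches just upstream of these start sites were thus not searched either. A match describes the letters in a window and does not show a bound site.

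The DNA replication-related element TATCGATA and the E-box CACGTG were in 0 of the 7 member windows, and in 4.34% and 3.37% of all conservative peaks. The looser E-box CACNTG was in 1 member window, beside 36.4% of conservative peaks. The word ACAGTG was in 2 member windows, those of Hsc70-4 and the Hsp83 intron, and in 28.6% of conservative peaks, 12.7% of non-passing regions and 14.2% of promoters. The GC content of the member windows was 41.3% at Hsp27, 36.0% at Hsp26, 30.7% at Hsp22, 34.7% at Hsc70-4 and 37.0% at Hsp60A, and 47.7% and 33.0% at the promoter-side and intron peaks of Hsp83. The median was 37.0% in all conservative peaks and 45.3% in non-passing regions.

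A list of 74 other chaperone genes set the 9 members beside the rest of the folding machinery. Of these, 19 (25.7%) had a conservative peak, near the 22.7% of all protein-coding genes. Of the 19, 2 genes were counted only through peaks already described, Hsp67Ba through that of Hsp26 and CG4456 through that of Hsp22, which left 17 of 72. Hsp67Bc shares the Hsp22 peak and also lies within 1 kb of the peak near Fdx1. By class the counts were 4 of 6 chaperones of the endoplasmic reticulum and 5 of 14 J proteins, which stimulate Hsp70. They were 3 of 8 other genes listed with the small heat shock genes and 2 of 6 prefoldin subunits. Further counts were 2 of 13 chaperonins, 2 of 12 co-chaperones and 1 of 12 other Hsp70 family genes. Neither of the 2 other Hsp90 family genes had a peak. The 3 genes listed with the small heat shock genes were Hsp67Ba, Hsp67Bc and CG4456, the last placed there by its synonym Hsp67Bb. All 3 were counted through the shared or neighbouring peaks named above. None had its strongest summit within 500 bp of its own start site, and for none was that start site the nearest. These classes are small, and differences between them were not tested. In 9 of the 19 the summit was within 500 bp of the gene's own start site. Among the 4 endoplasmic reticulum genes with a peak this held for 1, and the own start site was the nearest for 2.

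**Figure D4:**
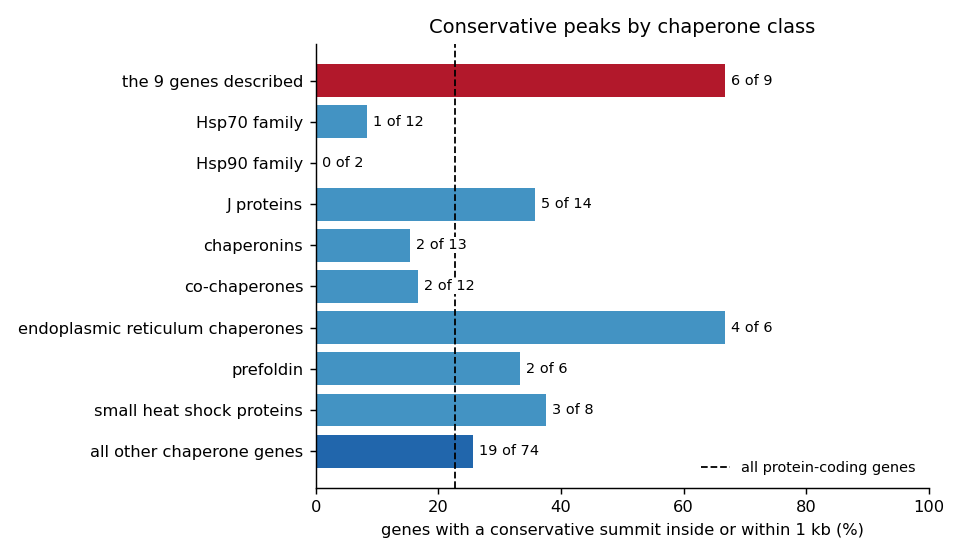
Share of genes (%, axis from 0 to 100) with a conservative summit inside the gene or within 1 kb, for the 9 genes described and for the classes of 74 other chaperone genes, with counts at the bar ends. The dashed line is the 22.7% of all protein-coding genes. The 9 genes stand at 6 of 9 and the other chaperone genes at 19 of 74, and 1 stress RNA gene with no peak is counted in the total without a bar of its own. The small heat shock bar, 3 of 8, counts only genes that share the Hsp26 or Hsp22 peak. The 9 genes were chosen with earlier results of these data known.

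Of the 10 other chaperone genes with the highest conservative signal, mrj, a J protein gene, was first with 644 at rank 109 and a summit 309 bp upstream of its start site, close to the level of Hsp27 in the same list. Its replicate signals were 227, 196 and 252, at ranks 73, 146 and 89. Tpr2, a J protein gene with 4 conservative peaks, had 300.2 at rank 480, with a summit 1313 bp upstream of its nearest start site. Hsc70-5, the mitochondrial Hsp70, had 214 at rank 866 with a summit 39 bp downstream of the start site, and was in all 3 replicate lists. Cnx99A, which encodes a calnexin, had 229 at rank 783, stv, a BAG-domain co-chaperone gene, 211 at rank 892, and CG11267, the Hsp10 partner of Hsp60A, 195 at rank 1010. CG11267 had no thresholded peak in replicate 2.

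The remaining 4 of these 10 peaks were nearer to the start site of another gene. The mgr peak (352, rank 350) was nearest to Irbp, the Pfdn6 peak (197, rank 995) to Su(z)12 and the Pdi peak (241, rank 726) to CG12316. The Hsp67Ba peak (292, rank 511) was that of Hsp26.

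The 6 near-identical inducible Hsp70 genes had no thresholded peak. In the ranked lists 2 of the 6 genes had a region in the conservative list, and 1, 1 and 2 had one in replicates 1, 2 and 3, with highest signals of 70.9, 28.3, 15.8 and 29.9. The treatment of reads that match several of these copies was not given in the sources used here. Their low numbers of regions are therefore uncertain.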

How the data were processed

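ChIP-seq peak lists of 3 biological replicates in 1 group were used. The authors deposited a thresholded and a ranked list per replicate, and lists derived from the alignments of all 3, including the conservative one, per the deposited file descriptions. Coordinates are on dm6, per the labels. Aligner, peak caller and settings: not given in the sources used here. The deposited signal is the authors' peak height, on a scale not given. The authors' ranked lists also hold the global IDR as a −log10 value and, as deposited scores, the signals of the matching peaks in the lists compared.

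Summits were joined to Ensembl BDGP6.54 (release 115) genes with Python 3.11.15 and pandas 2.3.3. The join was tested on simulated data. Signals were ranked only within a list. Replicate peaks matched a conservative peak by an overlap of at least 1 bp, and no peaks of different replicates were identical (0). Of 84 other chaperone symbols listed, 74 different genes were matched, 4 of them by a RefSeq synonym. All 9 members were named, with the 10 other chaperone genes of highest conservative signal, the 3 genes most like the strongest member, and any gene whose start site was nearer. Members and lists were chosen with earlier results of these data known. With 1 group no test was run, and depth was read only from the list lengths. Alternatives were other windows, other lists, a stricter IDR and leaving out each replicate.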

Additional observations from a re-analysis of the deposited data

How the results depend on the processing

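With only summits inside the genes (a window of 0 bp) the counts fell to 2 members, 3 peaks, 2 members with a peak in every replicate, 1 peak within 500 bp of a start site, 8 other chaperone genes and 9.67% of all genes. The share of all genes was 20.3% with a window of 500 bp and 27.8% with 2 kb, where Hsp23 was added through the Hsp27 peak and the median percentile was 85.5. It was 21.1% and 21.3% with the lists of 3219 and 3247 peaks. With the list of 3534 peaks, which lacks Hsp60A, the median percentile was 85.6. At an IDR of at most 0.001, which also dropped Hsp60A, it was 85.5, with 17.0% of all genes, and members with a peak in every replicate fell from 4 to 3, since Hsp22 had a −log10 IDR of 2.28 in replicate 3.

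Leaving out each replicate in turn, and requiring a peak in the conservative list and in both remaining replicates, gave 4 to 5 members, 5 to 6 peaks, 3 to 4 peaks within 500 bp of a start site, a median percentile of 85.5 to 88.6 and 12.7% to 13.9% of all genes. The conservative list itself was not remade. It is described as derived from all replicates, but its paired peaks matched replicates 2 and 3 only, so the 3 settings are not alike. Hsp60A was lost each time, and Hsc70-4 without replicate 2 and without replicate 3. Peaks of Hsp27, Hsp26, Hsp22 and Hsp83 remained in every such setting. Which members stayed was fixed by which replicate lists already held their peaks, so it adds no separate evidence. No paired analysis was possible because there is 1 group and no test.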
